A study of Homo sapiens with 10 samples.

Results

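The transcriptomes of HEK-293 cells transfected with siRNAs against the long noncoding RNA LINC00324 were compared with those of cells transfected with siRNAs against the long noncoding RNA LOC400043 (spelled LOC40043 in the study's design text). The comparison rests on 8 of the 10 arrays of the study, 4 per target, and on the 18229 transcript clusters (probe sets that each stand for 1 gene) listed in both deposited tables. HEK-293 is an established line of human embryonic kidney cells. There were 5 groups of 2 biological replicates: a scramble siRNA, LINC00324 siRNA 1, LINC00324 siRNA 2, LOC400043 siRNA 1 and LOC400043 siRNA 2. Every group, the scramble control included, received its siRNA at 10 nM by transient transfection with RNAiMax, and total RNA was measured on the Affymetrix HuGene-1_0-st array. For each target the deposited table gives log2 values of its 4 siRNA arrays and of the same 2 scramble arrays, normalized separately, so each array was centred per transcript cluster on the scramble mean of its own table. A difference between targets below is the mean of the 4 centred LINC00324 arrays minus the mean of the 4 centred LOC400043 arrays, on the log2 scale. A positive value therefore stands for a higher level with the LINC00324 siRNAs.

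An siRNA is a short double-stranded RNA whose guide strand directs the Argonaute complex to matching transcripts, which are then cut. Long noncoding RNAs are transcripts without a coding frame, and the study's title names a screen for long noncoding and circular RNAs that act as microRNA sponges, RNAs that bind microRNAs and keep them from other transcripts. Several siRNAs of different sequence are commonly used against one transcript, because each can also act on transcripts other than its target. In these whole-culture RNA samples, fewer cells of a kind and less RNA per cell cannot be told apart.

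The probe set of LINC00324 (listed as C17orf44 in the tables, chr17:8123948-8127361, genome build not given in sources used here) read -0.43 and -0.76 relative to scramble with LINC00324 siRNA 1 and -0.55 and -0.20 with siRNA 2. With the LOC400043 siRNAs it read -0.25 and -0.24 for siRNA 1 and -0.20 and -0.24 for siRNA 2. The targets' arrays overlapped, and the difference of -0.25 (SE 0.10, limma, adjusted p = 0.117) did not pass the test at adjusted p under 0.05. Its difference from scramble did not pass for the LINC00324 siRNAs either (-0.49, adjusted p = 0.185). The mean level of this probe set was 5.49 log2 units, against a median of 7.64 over all clusters. No probe set named LOC400043 was found, so the second target could not be checked. Array medians lay between 7.53 and 7.73 log2 units. The SD over clusters of the difference between replicate arrays was 0.243 for LINC00324 siRNA 1, the widest of the 5 groups, 0.128 for LINC00324 siRNA 2, 0.126 for LOC400043 siRNA 1, 0.141 for LOC400043 siRNA 2 and 0.186 for scramble. The 14 markers of HEK-293 cells had mean levels from 5.57 to 11.35 log2 units (median 8.24). The neurofilament genes INA and NEFM were at 11.04 and 9.87 and the vimentin gene VIM, the highest of the 14, at 11.35. Squamous markers ran from 5.00 to 10.55 (median 6.70, DSC3 at 10.10), fibroblast markers from 3.60 to 8.79 (median 6.16) and blood cell markers from 3.59 to 7.15 (median 5.59). The ranges overlap, so levels alone do not separate the marker lists. Among markers of other cell types, 0 of 12 fibroblast genes and 1 of 13 blood cell genes (7.69%, CD34 at -0.21) differed between the targets. So did 1 of 12 squamous genes (8.33%, DSC3 at -0.49, called in all 4 siRNA pairs), beside 21.7% of all clusters. Of these markers 4 fibroblast, 3 blood cell and 0 squamous genes had mean levels under 5. Whether low levels lie behind the low shares was not tested.

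Many genes differed between the targets, most of them by small amounts. Of the 18229 clusters, 3947 (21.7%) differed between the targets at an adjusted p under 0.05. In 2105 of them (11.5%) the level was higher with the LINC00324 siRNAs and in 1842 (10.1%) it was lower. At 1.5-fold or more the counts were 183 higher and 122 lower, and at 2-fold or more 9 higher and 14 lower. An unadjusted p under 0.05 was reached by 6134 clusters. A fit that counts the spread of the scramble arrays in both tables, added after the data were seen, called 532 higher and 307 lower. It entered the same 2 scramble arrays once per table, as if they were separate arrays. The difference between these arrays had an SD of 0.186 over clusters, but it changed from table to table with an SD of only 0.085. That fit thus treats a largely shared spread as independent, and its counts here and below are a rough guide. The 4 arrays of one target lay wholly above those of the other in 2776 clusters (15.2%), and 2206 of these were also called.

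The siRNAs of a target differed among themselves on a similar scale. The SD over clusters of the difference between siRNAs was 0.228 to 0.288 for the 4 pairs of a LINC00324 and a LOC400043 siRNA, 0.210 between the LINC00324 siRNAs and 0.260 between the LOC400043 siRNAs. The 4 between-target pairs gave 2042 (11.2%), 3741 (20.5%), 2716 (14.9%) and 3841 (21.1%) called clusters, in the order of the plot of called clusters by pair. Within a target, 1522 clusters (8.35%) were called between the LINC00324 siRNAs and 2925 (16%) between the LOC400043 siRNAs. In 1741 of the 3947 clusters called between targets, the siRNAs of at least 1 target lay further apart than the targets did. Only 413 clusters (2.27%) were called in one direction in all 4 pairs, 270 higher (1.48%) and 143 lower (0.784%) with the LINC00324 siRNAs. When each siRNA rather than each array was taken as the replicate, leaving 2 values a target, limma called 0 clusters. In that fit 1632 clusters had an unadjusted p under 0.05, and the smallest adjusted p was 0.496. The p-values below therefore measure the spread between arrays of the same siRNAs, and values by siRNA are given for the genes described in full. Of the 134 genes named by rule, 133 were called between the targets, all but LINC00324. The choice made this so, since list members and largest differences were taken from called genes only. Of these, 43 were called in one direction in all 4 pairs, beside 10.5% of all called clusters, and the rule favoured such genes. In 4 named genes (SPRED2, VIM, CNN2 and LAMA4) pairs were called in opposite directions, so the sign of the difference depends on the siRNAs compared. Leaving out either array of LINC00324 siRNA 2, LOC400043 siRNA 1 or LOC400043 siRNA 2 lowered the counts to between 1206 and 1390 higher and between 961 and 1129 lower. Leaving out LINC00324 siRNA 1 replicate 1 gave 2769 higher and 2178 lower, and leaving out its replicate 2 gave 2646 higher and 2808 lower.

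**Figure D1:**
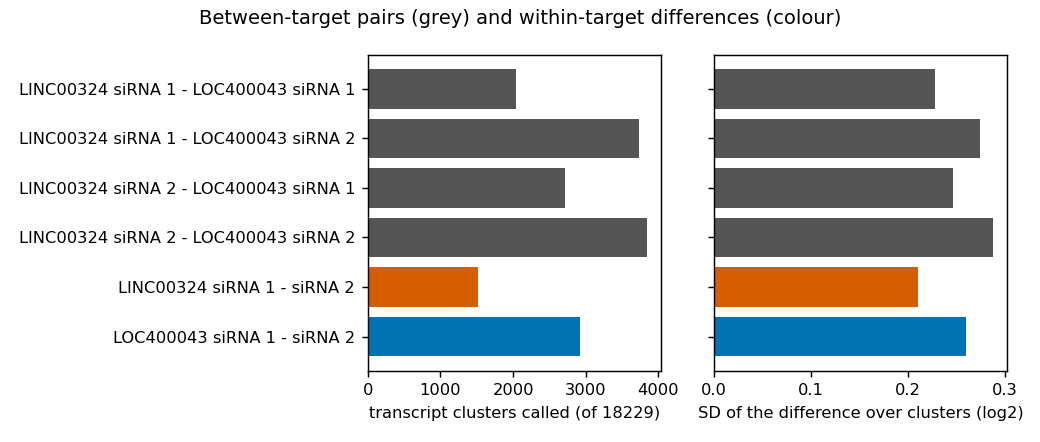
Transcript clusters called at an adjusted p under 0.05 (left panel, number of 18229) and SD over clusters of the log2 difference (right panel), for the 4 pairs of a LINC00324 and a LOC400043 siRNA (grey) and for the siRNAs of one target against each other (orange and blue). The LOC400043 siRNAs differed from each other in 2925 clusters, more than LINC00324 siRNA 1 differed from LOC400043 siRNA 1 (2042).

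The sides of scramble on which the targets lay were read from each table's own comparison with the scramble arrays, which both tables share. Against scramble, 36 clusters were higher (0.195%) and 52 lower (0.281%) with the LINC00324 siRNAs (0.476% of 18480 in all), and 1124 were higher (6.08%) and 2118 lower (11.5%) with the LOC400043 siRNAs (17.5% in all). The LINC00324 comparison holds the siRNA group with the widest replicate spread, and whether this lowered its count was not tested. A low count does not show that levels stayed at those of scramble. Without replicate 1 of LINC00324 siRNA 1 limma called 49 higher and 48 lower, and without its replicate 2 it called 43 higher and 118 lower. With an intensity trend in the variance model the LINC00324 counts were 389 higher and 684 lower, and without either scramble array or either array of LINC00324 siRNA 2 limma called 0 higher and 0 lower (1385 to 2040 at an unadjusted p under 0.05). Of the 2105 genes higher with LINC00324 than with LOC400043, 1287 were lower than scramble with LOC400043 alone and 789 passed the test against scramble for neither target. Of the 1842 lower, 659 were higher than scramble with LOC400043 alone, 16 were lower with LINC00324 alone and 1135 passed for neither. Opposite calls against scramble were made for 4 genes, which were NQO1 and SLC13A4 (higher with LINC00324, lower with LOC400043) and UHMK1 and QPCT (the reverse).

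The genes described first are the 12 called genes of largest difference in each direction whose arrays did not overlap between targets. NQO1 led those higher with LINC00324. It encodes a quinone reductase induced in the antioxidant response (chr16:69743304-69760533). It read 0.58 and 0.82 above scramble with LINC00324 siRNA 1 and 0.90 and 0.94 with siRNA 2. With LOC400043 siRNA 1 it read -0.10 and -0.09 and with siRNA 2 -0.54 and -0.67. All 4 LINC00324 arrays were above scramble and all 4 LOC400043 arrays below it, the latter by little for siRNA 1. The difference was 1.16 (SE 0.06, adjusted p = 0.000191), a 2.24-fold higher level. GSTA4, a glutathione transferase that clears aldehydes of lipid peroxidation, read -0.07 and 0.11 with LINC00324 siRNA 1 and 0.12 and 0.09 with siRNA 2, against -1.02 and -1.10 with LOC400043 siRNA 1 and -1.14 and -0.99 with siRNA 2. Both LOC400043 siRNAs lowered it to nearly the same level, while the LINC00324 arrays straddled scramble. Its difference was 1.12 (SE 0.06, adjusted p = 0.000191), and each of its 4 pair differences was at least 1.08. BLMH, the cysteine protease bleomycin hydrolase, gave a like picture, with 0.07 to 0.23 over the LINC00324 arrays and -1.03 to -0.76 over the LOC400043 arrays and a difference of 1.07 (SE 0.05, adjusted p = 0.000191). FAH, which carries out the last step of tyrosine breakdown, was below scramble in all 8 arrays, from -0.55 to -0.31 with LINC00324 and from -1.67 to -1.29 with LOC400043, and differed by 1.02 (adjusted p = 0.000191). MOCOS, the molybdenum cofactor sulfurase, was likewise below scramble in all 8 arrays, from -0.45 to -0.12 and from -1.48 to -0.97, and differed by 0.97 (adjusted p = 0.000453).

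In several of these genes 1 LOC400043 siRNA set most of the distance. LPCAT3, an acyltransferase that builds polyunsaturated phospholipids, read -0.17 and -0.32 with LOC400043 siRNA 1 and -1.48 and -1.37 with siRNA 2, against 0.19 to 0.28 over the LINC00324 arrays. NDUFV1, the complex I subunit that binds NADH, read -0.29 and -0.41 with LOC400043 siRNA 1 and -1.79 and -1.67 with siRNA 2, against -0.17 to 0.06 with LINC00324. The 2 LOC400043 siRNAs differed from each other by 1.18 in LPCAT3 (adjusted p = 0.000286) and by 1.38 in NDUFV1 (adjusted p = 0.000163), further than the targets, which differed by 1.07 and 0.99. SLC13A4, a sodium-coupled sulfate transporter, was split within both targets, at 0.92 and 1.08 with LINC00324 siRNA 1 and 0.30 and 0.19 with siRNA 2, against -0.03 and -0.01 with LOC400043 siRNA 1 and -0.81 and -0.74 with siRNA 2, and its arrays still did not overlap between targets (difference 1.02, adjusted p = 0.000191). The epithelial splicing regulator ESRP2 differed by 0.98, the monocarboxylate transporter gene SLC16A9 by 0.99, LRRC34 by 0.98 and MXRA7 by 0.96, with adjusted p from 0.000341 to 0.000952. The cluster annotated to MXRA7 lies on chromosome 2 in the tables, whereas the gene is on chromosome 17 in RefSeq, so its identity is uncertain. All 12 were lower than scramble with the LOC400043 siRNAs, and NQO1 and SLC13A4 were also higher than scramble with the LINC00324 siRNAs. Of the 12, 10 were called in all 4 siRNA pairs (all but NDUFV1 and SLC13A4). The next gene in this order was VARS1, at 0.94.

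**Figure D2:**
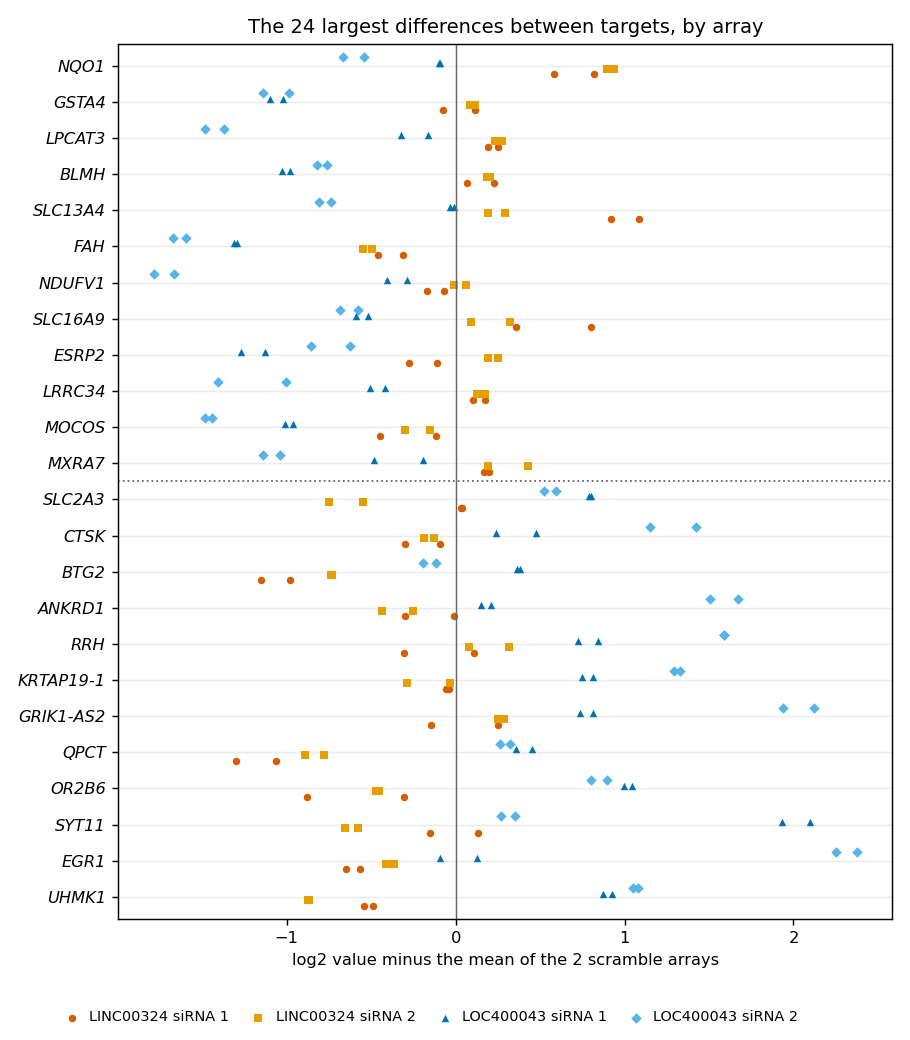
Each row is a gene and each point 1 array, at its log2 value minus the mean of the 2 scramble arrays of its table. Genes are ordered by the difference between targets, with the 12 largest positive above the dotted line and the 12 largest negative below it. In every row the 4 LINC00324 arrays (orange) lie on one side of the 4 LOC400043 arrays (blue), which the choice of these genes required, while EGR1, SYT11, LPCAT3 and NDUFV1 show the 2 LOC400043 siRNAs far apart.

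Among genes whose arrays did not overlap, the largest difference in the other direction was in UHMK1, a serine/threonine kinase that phosphorylates splicing factors and the cell cycle inhibitor p27 (chr1:162467632-162499400). It read -0.54 and -0.49 with LINC00324 siRNA 1, -0.87 and -0.87 with siRNA 2, 0.93 and 0.87 with LOC400043 siRNA 1 and 1.05 and 1.08 with siRNA 2. All 4 LINC00324 arrays were below scramble and all 4 LOC400043 arrays above it, by similar amounts for the siRNAs of a target. The difference was -1.67 (SE 0.04, adjusted p = 1.3e-05), a 3.19-fold lower level with LINC00324. QPCT, a glutaminyl cyclase that modifies the ends of secreted peptides, read -1.30 and -1.06 with LINC00324 siRNA 1 and -0.78 and -0.89 with siRNA 2, against 0.45 and 0.36 with LOC400043 siRNA 1 and 0.32 and 0.27 with siRNA 2. It too lay below scramble in every LINC00324 array and above it in every LOC400043 array, with a difference of -1.36 (SE 0.07, adjusted p = 0.000191). OR2B6, an olfactory receptor gene, had -0.88 to -0.31 over the LINC00324 arrays and 0.80 to 1.04 over the LOC400043 arrays, a difference of -1.46 (SE 0.11, adjusted p = 0.000382). In these 3 genes the siRNAs of a target differed by at most 0.35, whereas the differences between targets ran from -1.67 to -1.36.

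In EGR1, a transcription factor gene induced within minutes of growth factor signalling, the siRNAs of LOC400043 did not behave alike. It read -0.57 and -0.65 with LINC00324 siRNA 1, -0.41 and -0.37 with siRNA 2, 0.13 and -0.09 with LOC400043 siRNA 1 and 2.25 and 2.38 with siRNA 2. LOC400043 siRNA 1 left it near scramble and siRNA 2 raised it far above, so that siRNA 1 minus siRNA 2 was -2.30 (adjusted p = 6.62e-05) while the targets differed by -1.66 (SE 0.06, adjusted p = 0.000112). In SYT11, a synaptotagmin of vesicle traffic, LOC400043 siRNA 1 was the high one, at 1.93 and 2.10 against 0.27 and 0.35 for siRNA 2, and the LINC00324 arrays ranged from -0.65 to 0.13. The difference between targets was -1.48 (SE 0.08, adjusted p = 0.000191). ANKRD1, a target of the coactivator YAP, read 0.21 and 0.15 with LOC400043 siRNA 1 and 1.51 and 1.67 with siRNA 2 and differed between targets by -1.13 (adjusted p = 0.00033). The genes GRIK1-AS2 (chr21:30968360-31003067, named through a former symbol) and KRTAP19-1 (chr21:31852299-31852666), within 1 megabase of each other, differed by -1.24 and -1.15. GRIK1-AS2 was above scramble in all 4 LOC400043 arrays, from 0.73 to 2.12, as was KRTAP19-1, from 0.75 to 1.33. RRH, which encodes an opsin of the retinal pigment epithelium, differed by -1.14, the protease gene CTSK by -0.999, the antiproliferative p53 target BTG2 by -1.01 and the glucose transporter gene SLC2A3 by -0.98, with adjusted p from 0.000191 to 0.000574. Of these 12 genes, 10 were called in all 4 pairs (all but SYT11 and ANKRD1), 11 were higher than scramble with the LOC400043 siRNAs, and UHMK1, QPCT and BTG2 were lower than scramble with the LINC00324 siRNAs. BTG2, the exception on the LOC400043 side, was 0.11 from scramble there (adjusted p = 0.253). The next gene in this order was TMEFF2, at -0.98.

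The gene lists below were drawn up from general knowledge with earlier results of these data known. In each, up to 4 members of smallest p among those called are described, so uncalled members could not be chosen. Any other member is named because its value was seen. Over all clusters 11.5% were called higher and 10.1% lower, and in all 4 pairs 1.48% and 0.784%. The fit that counts the scramble spread in both tables called 532 higher and 307 lower of the 18229 clusters. Cells make fatty acids and sterols through enzymes whose genes are switched on by the SREBP transcription factors. In the fatty acid synthesis list, 9 of the 14 measured genes (64.3%) were called higher with LINC00324 and 0 lower, and 5 were called higher in all 4 siRNA pairs (FASN, FADS1, SREBF1, FADS2 and ACLY). The median difference over the list was 0.30, beside 0.0008 over all clusters, of which 11.5% were called higher. By siRNA, the list median against scramble was -0.03 and 0.05 for the LINC00324 siRNAs and -0.30 and -0.30 for the LOC400043 siRNAs. The median thus lay near scramble for one target and below it for both siRNAs of the other. FASN, the fatty acid synthase, read 0.17 and 0.21 with LINC00324 siRNA 1 and 0.13 and 0.11 with siRNA 2, against -0.33 and -0.35 with LOC400043 siRNA 1 and -0.69 and -0.66 with siRNA 2. Every LINC00324 array was above scramble and every LOC400043 array below it (difference 0.66, SE 0.04, adjusted p = 0.000267). SREBF1, which encodes SREBP1 itself, read 0.05 and 0.07 with LINC00324 siRNA 1 and 0.14 and 0.12 with siRNA 2, against -0.46 and -0.40 with LOC400043 siRNA 1 and -0.25 and -0.32 with siRNA 2, and it also did not overlap (difference 0.45, SE 0.05, adjusted p = 0.000861). FADS1, the delta-5 desaturase, differed by 0.50 (adjusted p = 0.000837) and ACSL1, which activates long-chain fatty acids, by 0.55 (adjusted p = 0.00181).

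In the list of cholesterol synthesis and uptake, 11 of 23 genes (47.8%, beside 11.5% of all clusters) were called higher with LINC00324. Of the others 1 was called lower (4.35%, beside 10.1%). In all 4 pairs 3 were called higher (INSIG1, TM7SF2 and DHCR7), beside 1.48% of all clusters. The median difference was 0.14. Against scramble the list medians were -0.03 and -0.07 for the LINC00324 siRNAs and -0.26 and -0.20 for the LOC400043 siRNAs. INSIG1, which holds SREBP in the endoplasmic reticulum and is itself an SREBP target, read -0.04 and 0.02 with LINC00324 siRNA 1 and -0.07 and -0.15 with siRNA 2, against -0.89 and -0.92 with LOC400043 siRNA 1 and -0.55 and -0.51 with siRNA 2. Its LINC00324 arrays were close to scramble and its LOC400043 arrays well below (difference 0.66, SE 0.05, adjusted p = 0.000321). The sterol reductase TM7SF2 differed by 0.54, with -0.57 to -0.51 over the LOC400043 arrays (adjusted p = 0.000626). DHCR7, the last enzyme of cholesterol synthesis, differed by 0.46 (adjusted p = 0.000767), and LSS, the lanosterol synthase, by 0.41 (adjusted p = 0.00328). LSS was below scramble in all 8 arrays, from -0.35 to -0.12 with LINC00324 and from -0.80 to -0.53 with LOC400043. The 1 gene called lower was the sterol transfer gene STARD4 (-0.53). The letters TCACNCCAC of the sterol regulatory element were found on either strand in the 250 upstream bases of 1 of 17 cholesterol genes with a RefSeq promoter entry (5.88%, SREBF2) and 1 of 13 fatty acid genes (7.69%, ACSL1), beside 1.22% of the 13574 measured genes with an entry. In the fatty acid list 5 genes and in the cholesterol list 11 did not pass the test. In the fit that counts the scramble spread in both tables, 6 fatty acid genes and 4 cholesterol genes were called higher and 0 of either list lower.

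**Figure D3:**
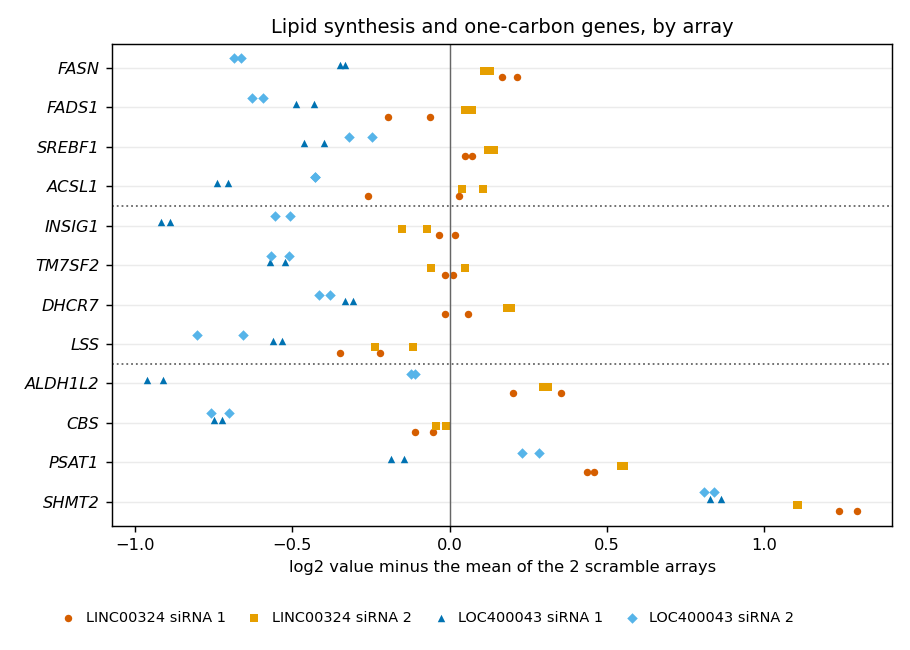
Points are single arrays at their log2 value minus the scramble mean, for the 4 members of smallest p of the fatty acid synthesis list (top), the cholesterol list (middle) and the serine and one-carbon list (bottom). In each of the 12 genes all LINC00324 arrays (orange) lie to the right of all LOC400043 arrays (blue), with SHMT2 above scramble in all 8 arrays.

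Serine and one-carbon enzymes make serine and glycine and pass their carbon units to folate and methionine. With LINC00324, 10 of 18 of their genes (55.6%, beside 11.5% of all clusters) were called higher. Called lower were 2 (11.1%, beside 10.1%), TYMS at -0.33 and MAT2B at -0.39. In all 4 pairs 3 were called higher (ALDH1L2, CBS and SHMT2), beside 1.48% of all clusters, and the median difference was 0.20. The list medians against scramble were -0.08 and -0.0025 with the LINC00324 siRNAs and -0.21 and -0.20 with the LOC400043 siRNAs. CBS, the first enzyme of transsulfuration, read -0.11 and -0.05 with LINC00324 siRNA 1 and -0.01 and -0.04 with siRNA 2, against -0.72 and -0.75 with LOC400043 siRNA 1 and -0.70 and -0.76 with siRNA 2. Both LOC400043 siRNAs lowered it by similar amounts and the LINC00324 arrays stayed close to scramble (difference 0.68, SE 0.05, adjusted p = 0.000277). SHMT2, the mitochondrial serine hydroxymethyltransferase, was above scramble in all 8 arrays, from 1.10 to 1.29 with LINC00324 and from 0.81 to 0.86 with LOC400043, and both targets were called higher than scramble (adjusted p = 0.00449 and 0.00115). The targets differed in it by 0.35 (SE 0.04, adjusted p = 0.00192). ALDH1L2, a mitochondrial folate dehydrogenase, read -0.91 and -0.96 with LOC400043 siRNA 1 and -0.12 and -0.11 with siRNA 2 and differed between targets by 0.82 (adjusted p = 0.000243), and the serine synthesis gene PSAT1 differed by 0.45 (adjusted p = 0.000775). With the scramble spread counted in both tables, 5 genes of the list were called higher and 0 lower.

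Genes of the amino acid response are switched on by the factor ATF4 when amino acids are short. In 14 of 30 cases (46.7%, beside 11.5% of all clusters) they were called higher with LINC00324. Called lower were 2 (6.67%, beside 10.1%), DDIT3 at -0.59 and GARS1 at -0.19. In all 4 pairs 4 were called higher (SLC6A9, SLC7A5, VEGFA and DDIT4), beside 1.48% of all clusters, and the median difference was 0.17. Here the LOC400043 siRNAs stood on opposite sides of scramble. The list median was -0.18 with LOC400043 siRNA 1 and 0.22 with siRNA 2, against 0.18 and 0.22 with the LINC00324 siRNAs. The median difference between targets therefore came with LOC400043 siRNA 1 below the other 3 siRNAs. SLC7A11, the cystine importer, read 0.78 and 0.81 with LINC00324 siRNA 1 and 1.16 and 1.14 with siRNA 2, against 0.00 and -0.07 with LOC400043 siRNA 1 and 0.60 and 0.56 with siRNA 2. All LINC00324 arrays were above all LOC400043 arrays, of which those of siRNA 1 were at scramble (difference 0.70, SE 0.05, adjusted p = 0.000255). The glycine transporter gene SLC6A9 read 0.32 to 0.63 over the LINC00324 arrays, -0.79 and -0.78 with LOC400043 siRNA 1 and 0.02 and -0.10 with siRNA 2 (difference 0.89, adjusted p = 0.000269). SLC1A5, the main glutamine importer of cultured cells, read 0.22 and 0.22 with LINC00324 siRNA 1 and 0.49 and 0.48 with siRNA 2, against -0.58 and -0.66 with LOC400043 siRNA 1 and 0.15 and 0.09 with siRNA 2, a split of the LOC400043 siRNAs around scramble (difference 0.60, SE 0.05, adjusted p = 0.000372). STC2, a secreted glycoprotein gene, differed by 0.60 (adjusted p = 0.000571), with LOC400043 siRNA 2 inside the range of the LINC00324 arrays. With the scramble spread counted in both tables, 9 of the 30 genes were called higher and 0 lower, beside 532 and 307 of the 18229 clusters.

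The 250 bases upstream of the start of SLC1A5 are shown because the gene is one of 6 among the 27 list members with a promoter entry (22.2%) that carry TGATGNAA on either strand, a core of the composite site bound by ATF4 with C/EBP factors. The same letters were found in 3.17% of the 13574 measured genes with an entry. The sequence is that of RefSeq (GRCh38.p14, chr19:46784815-46785064, minus strand, written in the direction of transcription), with the match in capitals.
SLC1A5: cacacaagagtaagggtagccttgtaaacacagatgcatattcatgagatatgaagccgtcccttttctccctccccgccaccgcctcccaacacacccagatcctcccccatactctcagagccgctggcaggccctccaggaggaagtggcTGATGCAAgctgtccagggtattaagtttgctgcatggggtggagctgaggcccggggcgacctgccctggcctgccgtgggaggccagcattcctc
The match is a description of the letters and was not linked to the values of SLC1A5 by any test.

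Immediate early genes, the first genes to be transcribed after growth factor or stress signals, were called lower with LINC00324 in 14 of 29 cases (48.3%, beside 10.1% of all clusters) and higher in 1 (MYC, 0.38). The median difference was -0.21. Of the 4 siRNAs, LOC400043 siRNA 2 stood apart, with a list median of 0.28 above scramble, while the medians were -0.11 for LOC400043 siRNA 1 and -0.11 and -0.18 for the LINC00324 siRNAs. In this list 1 gene, EGR1, was called lower in all 4 pairs. FOS, which encodes a subunit of the AP-1 factor, read -0.42 to -0.38 over the LINC00324 arrays, -0.26 and -0.20 with LOC400043 siRNA 1 and 0.33 and 0.48 with siRNA 2 (difference -0.48, SE 0.05, adjusted p = 0.000988). FOSB read -0.59 to -0.32 over the LINC00324 arrays, -0.18 and -0.38 with LOC400043 siRNA 1 and 0.60 and 0.62 with siRNA 2 (difference -0.62, adjusted p = 0.00093). In FOSB the arrays of LOC400043 siRNA 1 overlapped those of LINC00324, whereas in FOS all LOC400043 arrays were higher. FOSL2, a further AP-1 subunit gene, differed by -0.36 (adjusted p = 0.00173). In the fit that counts the scramble spread in both tables, 4 of the 29 genes were called lower and 1 higher.

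The upstream sequence of EGR1 is printed for its matches to the CArG box, the A/T-rich element bound by serum response factor at many immediate early genes, searched as CC, 6 bases of A or T, and GG on both strands. It was found in 3 of the 21 list members with an entry (14.3%; EGR1, EGR2 and SRF) and in 1.66% of the 13574 genes. The sequence is that of RefSeq (GRCh38.p14, chr5:138465229-138465478, plus strand), with 2 matches in capitals.
EGR1: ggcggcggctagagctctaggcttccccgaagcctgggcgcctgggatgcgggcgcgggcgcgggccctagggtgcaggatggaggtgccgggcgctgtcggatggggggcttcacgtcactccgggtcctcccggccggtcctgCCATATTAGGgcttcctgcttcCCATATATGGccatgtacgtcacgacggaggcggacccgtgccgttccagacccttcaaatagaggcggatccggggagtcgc
These letters were likewise not linked to the values by any test.

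In the list of PEA3 factors and ERK feedback genes, 5 of 15 (33.3%, beside 10.1% of all clusters) were called lower with LINC00324. SPRY1 was the 1 called higher (0.24), 6.67% of the list beside 11.5%, and the median difference was -0.11. None of the 15 was called in all 4 pairs. ETV5, a PEA3 factor gene, read -0.09 to 0.36 over the LINC00324 arrays, 0.21 and 0.06 with LOC400043 siRNA 1 and 1.99 and 2.53 with siRNA 2. LOC400043 siRNA 2 was the 1 siRNA of the 4 called against scramble there, and the difference between targets was -1.14 (SE 0.12, adjusted p = 0.00106). The ERK inhibitor gene SPRY2 differed by -0.46, SPRY4 by -0.24 and SPRED2 by -0.32 (adjusted p from 0.003 to 0.0358), and in all 3 the arrays of the targets overlapped. SPRED1 was the other gene called lower (-0.30). Of the 22 TGF-beta, BMP and YAP targets, 7 (31.8%, beside 10.1% of all clusters) were called lower and 1 higher (4.55%, beside 11.5%). Their median difference was -0.07. Beside ANKRD1, the matricellular gene CCN1 differed by -0.35 and SKIL, a SMAD corepressor gene, by -0.31, while the gene of the ligand TGFB1 itself was higher with LINC00324 by 0.41 (adjusted p = 0.00348). In the fit that counts the scramble spread in both tables, the ERK feedback list held 0 higher and 1 lower. The TGF-beta, BMP and YAP list held 1 higher and 1 lower, beside 532 and 307 of all 18229 clusters.

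Targets of p53, the factor that halts the cell cycle and promotes repair or death after damage, were called lower with LINC00324 in 13 of 29 genes (44.8%, beside 10.1% of all clusters) and higher in 1 (3.45%, beside 11.5%; SESN2, 0.24), with a median difference of -0.19. The list medians were -0.50 and -0.41 for the LINC00324 siRNAs, -0.42 for LOC400043 siRNA 2 and 0.04 for LOC400043 siRNA 1. The difference between targets thus came with LOC400043 siRNA 1 at scramble and the other 3 siRNAs below it. BTG2 read -1.15 and -0.98 with LINC00324 siRNA 1 and -0.73 and -0.74 with siRNA 2, against 0.36 and 0.38 with LOC400043 siRNA 1 and -0.19 and -0.12 with siRNA 2. It was the 1 gene of the list called lower in all 4 pairs. DDB2, a sensor of ultraviolet damage, read -0.97 to -0.71 over the LINC00324 arrays, 0.18 and 0.06 with LOC400043 siRNA 1 and -0.68 and -0.52 with siRNA 2 (difference -0.58, adjusted p = 0.00233). The death receptor gene TNFRSF10B differed by -0.63 (adjusted p = 0.00108) and SESN1, an inhibitor of mTORC1 signalling, by -0.49 (adjusted p = 0.00176), both with the arrays of LOC400043 siRNA 2 overlapping those of LINC00324. In the fit that counts the scramble spread in both tables, 4 of the 29 genes were called lower and 0 higher.

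**Figure D4:**
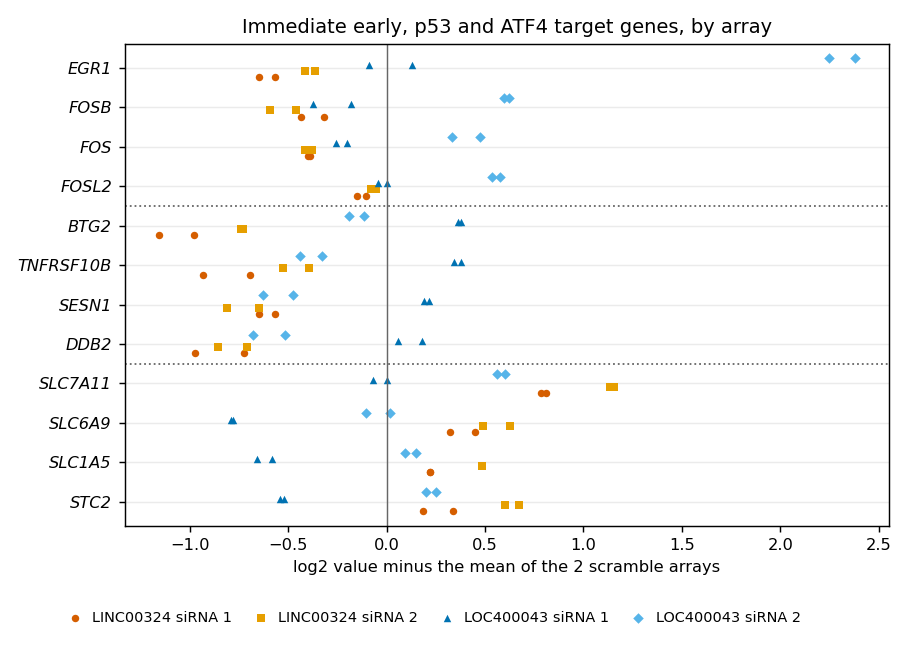
Points are single arrays at their log2 value minus the scramble mean, for the 4 members of smallest p of the immediate early (top), p53 (middle) and ATF4 (bottom) lists. LOC400043 siRNA 2 (light blue) stands apart in the top block, as in EGR1 at 2.25 and 2.38, and LOC400043 siRNA 1 (dark blue) is the siRNA furthest from the LINC00324 arrays (orange) in the middle and bottom blocks.

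Glycolysis and hypoxia genes were called higher with LINC00324 in 13 of 28 cases (46.4%, beside 11.5% of all clusters) and lower in 3 (10.7%, beside 10.1%; SLC2A3, HIF1A at -0.30 and BNIP3L at -0.25), with a median difference of 0.16. PFKL and PFKP, subunits of phosphofructokinase, the committing step of glycolysis, were called higher in all 4 pairs. PFKL read -0.06 to -0.03 over the LINC00324 arrays and -0.75 to -0.39 over the LOC400043 arrays (difference 0.55, SE 0.05, adjusted p = 0.000562), and PFKP differed by 0.42 (adjusted p = 0.00128). The glucose transporter gene SLC2A3 went the other way, as given above, at 0.03 and 0.04 with LINC00324 siRNA 1 and -0.75 and -0.55 with siRNA 2 and 0.53 to 0.80 over the LOC400043 arrays. BNIP3, a hypoxia-induced mitophagy receptor gene, differed by 0.57 (adjusted p = 0.000636) but read 0.30 and 0.24 with LOC400043 siRNA 1 and -0.51 and -0.53 with siRNA 2. NRF2 targets of the antioxidant response were called higher in 8 of 25 cases (32%) and lower in 2 (ABCC2, and AKR1C2 at -0.24), with a median difference of 0.06. NQO1 was the 1 member called in all 4 pairs. The glutathione reductase gene GSR differed by 0.57, at 0.08 and 0.15 with LOC400043 siRNA 1 and -0.97 and -0.89 with siRNA 2 (adjusted p = 0.000623), and the transporter gene ABCC2 by -0.40 (adjusted p = 0.00153). When the scramble spread was counted in both tables, 3 glycolysis genes were called higher and 1 lower, and 3 NRF2 targets higher and 1 lower. The letters TGACNNNGC of the antioxidant response element were found in 6 of 19 members with an entry (31.6%) and in 15.04% of the 13574 genes.

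Cell cycle lists held calls in both directions. In the list of G1 cyclins and kinases 5 of 18 genes were called higher (27.8%, beside 11.5% of all clusters) and 3 lower (16.7%, beside 10.1%). In that list CDK6 was the 1 called in all 4 pairs. CDK6, a kinase that drives entry into S phase, read 0.49 and 0.55 with LINC00324 siRNA 1 and 0.08 and -0.01 with siRNA 2, against -0.54 and -0.62 with LOC400043 siRNA 1 and -0.60 and -0.60 with siRNA 2. The LOC400043 siRNAs lay 0.02 apart and together lowered it below scramble (adjusted p = 0.00288), and the targets differed by 0.87 (SE 0.05, adjusted p = 0.000191). CDKN1B, which encodes p27, differed by -0.49 (adjusted p = 0.00286), the retinoblastoma-like gene RBL1 by -0.40, CDKN1A by -0.24 and MYC by 0.38, and CCND2 (0.27), CDKN2C (0.28) and CDK4 (0.17) were also higher. Of the 29 genes of the G1/S transition and DNA replication, 5 were called higher (17.2%) and 2 lower (6.9%). RRM2, a ribonucleotide reductase subunit gene, was lower with LINC00324 in all 4 pairs (-0.54, adjusted p = 0.00352). CDC45 differed by 0.33, POLA1 by 0.28 and TYMS by -0.33, and RFC2 (0.19), GINS1 (0.23) and POLA2 (0.17) were also higher. Of the 31 genes of G2/M and mitosis, 6 were called higher (19.4%) and 2 lower (6.45%). Among them were the separase gene ESPL1 (0.42), TPX2 (0.30), CCNA2 (0.30), NUSAP1 (-0.41) and TTK (-0.34). Replication-dependent histone genes, which supply histones in S phase, were called higher in 12 of 37 cases (32.4%, beside 11.5%) and lower in 2 (5.41%, beside 10.1%; H3C6, and H2BC11 at -0.51), with H1-3 and H2AC8 called higher in all 4 pairs. H1-3 read -0.24 to 0.38 over the LINC00324 arrays and -0.75 to -0.58 over the LOC400043 arrays (difference 0.81, adjusted p = 0.000954), H2AC8 differed by 0.73 and H4C2 by 0.32, while H3C6 was lower with LINC00324 (-0.92, adjusted p = 0.00352). Histone genes of a cluster are close copies of one another, so that probe sets can share signal between them. With the scramble spread counted in both tables, 2 histone genes were called higher and 0 lower, and the G1, G1/S and G2/M lists held 4, 1 and 1 calls.

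Targets of the let-7 microRNA family, which restrains growth genes in differentiated cells, were called in both directions. With LINC00324, 6 of 25 genes (24%) were higher and 10 (40%) lower, beside 11.5% and 10.1% of all clusters. In all 4 pairs 2 were called in each direction, beside 1.48% higher and 0.784% lower over all clusters. With the scramble spread counted in both tables, 2 were called in each direction. CDK6 and E2F5 (0.48) were the 2 higher in all pairs, and PLAGL2 (-0.63) and RRM2 the 2 lower. PLAGL2, a zinc finger factor gene, was lower than scramble with the LINC00324 siRNAs, from -0.90 to -0.67, and read -0.37 and -0.34 with LOC400043 siRNA 1 and 0.13 and 0.14 with siRNA 2. The nuclear receptor gene NR6A1 differed by -0.54, with LINC00324 siRNA 1 apart from the other siRNAs, at -1.14 and -1.03 against -0.10 and -0.14 for siRNA 2. In the small RNA pathway 2 of 17 genes (11.8%) were called higher (MOV10, and XPO5 at 0.15) and 4 (23.5%) lower, beside 11.5% and 10.1% of all clusters. With the scramble spread counted in both tables, 0 of the 17 were called higher and 1 lower. The helicase gene MOV10, a partner of Argonaute, was lower than scramble with LOC400043 and differed by 0.41 (adjusted p = 0.00316), AGO3 differed by -0.34, TNRC6C by -0.24, DROSHA by -0.23 and the microRNA-processing enzyme gene DICER1 by -0.24. Of 29 genes of the interferon and double-stranded RNA response, 0 were called higher and 4 lower (13.8%, beside 10.1% of all clusters). Counting the scramble spread in both tables, limma called 0 of the 29, with 1 at an unadjusted p under 0.05. The largest difference was in RIGI, a sensor of viral RNA, at -0.83 (adjusted p = 0.000673), with 0.03 and -0.09 for LOC400043 siRNA 1 and 1.31 and 1.59 for siRNA 2. IFIT2, EIF2AK2 and IRF9 differed by -0.25, -0.23 and -0.21. The mean level of IFIT2 was low, at 4.28 log2 units, and 7 of the 29 genes had mean levels under 5. No siRNA pair was called in EIF2AK2.

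In ANXA1 and FLNA the LOC400043 siRNAs stood far apart. ANXA1, which encodes a phospholipid-binding annexin, read -0.61 and -0.19 with LINC00324 siRNA 1 and -0.12 and -0.20 with siRNA 2, -0.32 and -0.40 with LOC400043 siRNA 1 and 3.14 and 3.18 with siRNA 2. LOC400043 siRNA 2 carried the difference between targets of -1.68 (SE 0.09, adjusted p = 0.000191), since the arrays of the other 3 siRNAs overlapped. Of 15 annexin and S100 genes 4 were called higher (26.7%, beside 11.5% of all clusters) and 1 lower (6.67%, beside 10.1%). The higher ones were ANXA7 at 0.47 (called in all 4 pairs), ANXA6 at 0.25, ANXA2 at 0.21 and ANXA11 at 0.19. FLNA, the gene of the actin crosslinker filamin A, read -2.12 and -1.92 with LOC400043 siRNA 1, -0.33 and -0.39 with siRNA 2 and -0.35 to 0.06 over the LINC00324 arrays, and differed by 1.05 (SE 0.06, adjusted p = 0.000208). In the actin cytoskeleton list 6 of 28 genes were called higher (21.4%) and 2 lower (7.14%). Among them were the nonmuscle myosin gene MYH10 (0.32), CNN2 (0.43) and TAGLN2 (0.28), with ACTA2 (-0.30) and ZYX (-0.19) the lower ones. Of 26 collagen and matrix genes 6 were called higher (23.1%) and 1 lower (3.85%). The crosslinking enzyme gene LOX was at 0.70, LAMA4 at 0.58, LAMB2 at 0.36 and NID1 at 0.34, and SPARC was lower (-0.45). In LAMA4 all 4 pairs were called but the direction turned, from 1.63 and 0.61 for LINC00324 siRNA 1 to 0.54 and -0.48 for siRNA 2 against LOC400043 siRNAs 1 and 2. LOX, LAMB2 and NID1 were called against LOC400043 siRNA 2 alone, and LINC00324 siRNA 2 minus LOC400043 siRNA 1 was 0.08 in LOX (adjusted p = 0.731). Of 21 semaphorin and receptor genes 4 were called higher and 4 lower (19% each). The guidance ligand genes SEMA3C, SEMA3D and SEMA6A were called lower with LINC00324 (differences of -0.996, -0.59 and -0.50), as was the receptor gene NRP1 (-0.38). LINC00324 siRNA 2 carried the differences of SEMA3D and SEMA6A. LINC00324 siRNA 1 differed from the LOC400043 siRNAs by 0.01 and -0.23 in SEMA3D and by -0.03 and -0.24 in SEMA6A, none of them called, while it lay 0.95 and 0.73 above LINC00324 siRNA 2 (adjusted p = 0.00265 and 0.00299). The plexin receptor genes PLXNA1 (0.43), PLXND1 (0.35), PLXNA2 (0.22) and PLXNA3 (0.18) were higher. In SEMA3C, LOC400043 siRNA 2 read 2.02 and 2.07 against 0.47 and 0.51 for siRNA 1, and LINC00324 siRNA 1 minus LOC400043 siRNA 1 was 0.23 (adjusted p = 0.163). With the scramble spread counted in both tables, fewer genes of these 4 lists were called. The annexin list held 1 higher and 1 lower, the actin list 3 and 0, the matrix list 2 and 0 and the semaphorin list 1 and 2. Over all 18229 clusters that fit called 532 higher and 307 lower.

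**Figure D5:**
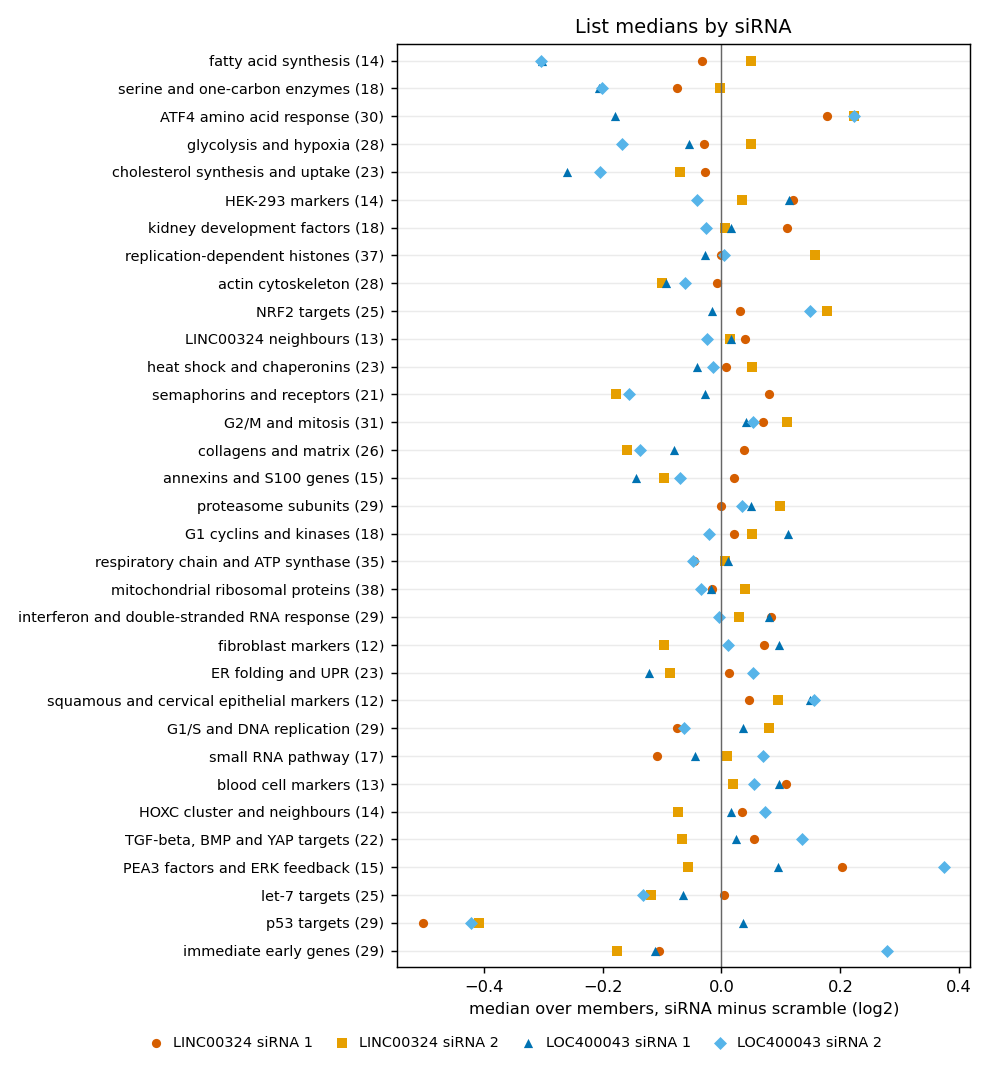
Median over the measured members (number in brackets) of each of the 33 gene lists, for each siRNA against scramble on the log2 scale, with lists ordered by the median difference between targets. Both LOC400043 siRNAs lie below both LINC00324 siRNAs in the fatty acid, serine and cholesterol lists, while LOC400043 siRNA 2 lies apart in the immediate early list and LOC400043 siRNA 1 in the p53 list.

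In the lists of respiration, mitochondrial ribosomes, the proteasome, heat shock and endoplasmic reticulum folding, the shares of called members lay near those of all clusters (11.5% higher and 10.1% lower) except for the 0 lower among heat shock genes, and SEL1L was the 1 member called in all 4 pairs. Respiratory chain and ATP synthase genes were called higher in 6 of 35 cases (17.1%) and lower in 4 (11.4%), with NDUFV1 as given above, UQCRC1 at 0.36, ATP5MC1 at 0.28 and UQCRC2 at 0.24. The lower ones were UQCRB (-0.33), NDUFS1 (-0.18), NDUFA9 (-0.18) and NDUFS4 (-0.22). Mitochondrial ribosomal protein genes were called higher in 5 of 38 cases (13.2%) and lower in 4 (10.5%). MRPL51, at -0.68, was lowered by LINC00324 siRNA 1 alone (-1.21 and -1.07, against 0.18 and 0.14 for siRNA 2), MRPS27 differed by -0.29, MRPS2 by 0.29 and MRPL1 by 0.29, with MRPS31 (-0.28) and MRPL30 (-0.17) also lower and MRPS15 (0.19), MRPS5 (0.18) and MRPL17 (0.18) also higher. Proteasome genes were called higher in 3 of 29 cases (10.3%) and lower in 2 (6.9%), with PSMD11 (-0.36) lowered by LINC00324 siRNA 2 alone (-0.72 and -0.73), PSMA7 at 0.30, PSMA2 at -0.21, PSMD4 at 0.18 and PSMD3 at 0.15. Of 23 heat shock and chaperonin genes 3 were called higher (13%), namely HSPB1 (0.60), DNAJA1 (0.30) and TCP1 (0.17), and 0 lower. Of 23 genes of endoplasmic reticulum folding 3 were called higher and 3 lower (13% each), with the degradation adaptor gene SEL1L lower in all 4 pairs (-0.47, adjusted p = 0.00195), DNAJB11 at -0.37, XBP1 at 0.32, EDEM1 at 0.29, CANX at 0.18 and HSPA5 at -0.19. In the fit that counts the scramble spread in both tables, these 5 lists together held 3 calls higher (2 respiratory and 1 heat shock) and 3 lower (1 each in the mitochondrial ribosome, proteasome and folding lists).

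Of 13 genes near LINC00324 on chromosome 17, 4 (30.8%, beside 11.5% of all clusters) were called higher with LINC00324 and 0 lower. They were VAMP2 (0.32), CTC1 (0.24), ALOXE3 (0.18) and PFAS (0.17). No siRNA pair was called in CTC1 or ALOXE3, and VAMP2 and PFAS were called against LOC400043 siRNA 2 alone. With the scramble spread counted in both tables limma called 0 of the 13, and 3 had an unadjusted p under 0.05. VAMP2, a vesicle fusion gene, read -0.22 to 0.22 over the LINC00324 arrays, 0.03 and 0.03 with LOC400043 siRNA 1 and -0.72 and -0.57 with siRNA 2. Of 14 genes of the HOXC cluster and its neighbours 0 were called higher and 2 lower (14.3%, beside 10.1%), HOXC11 (-0.37) and HNRNPA1 (-0.27). Of 18 kidney development factors 1 was called higher (FOXD1, 0.17) and 1 lower (EYA1, -0.29), 5.56% each and below the shares of all clusters. Of 14 HEK-293 markers 4 were called higher (28.6%, beside 11.5% of all clusters) and 0 lower (beside 10.1%). The neuropeptide gene GAL read 0.15 to 0.25 over the LINC00324 arrays and -0.90 to -0.37 over the LOC400043 arrays and was the 1 marker called in all 4 pairs (difference 0.84, SE 0.06, adjusted p = 0.000372). NEFM differed by 0.62, INA by 0.31 and VIM by 0.15. LINC00324 siRNA 1 minus LOC400043 siRNA 1 was -0.004 in NEFM, and INA was called against LOC400043 siRNA 2 alone. In VIM the LINC00324 siRNAs lay 0.74 and 0.79 above LOC400043 siRNA 1 but differed from siRNA 2 by -0.48 and -0.43. With the scramble spread counted in both tables, 3 HEK-293 markers were called higher and 0 lower, and 0 genes of the HOXC and kidney lists were called.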

How the data were processed

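Total RNA of 10 transfected HEK-293 cultures was hybridised to Affymetrix HuGene-1_0-st arrays. The deposited tables hold log2 values per transcript cluster, made by the authors with RMA (background correction, quantile normalization and probe summary), per the submitters' processing notes, separately for the 6 arrays of each target. Array images, the choice of the 18480 rows a table, the annotation release and the genome build are not given in sources used here. The authors' deposited log2 differences from scramble equalled the differences of column means to 0.0005, and their deposited p-values were not used. The series matrix proved to hold both normalizations side by side, so no common normalization of all 10 arrays was at hand, and the planned fallback was the main test.

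Each siRNA array was centred per cluster on the scramble mean of its own table. limma 3.58.1 in R 4.3.3 was fitted to the 8 centred arrays in 4 groups, with 4 residual degrees of freedom and Benjamini-Hochberg adjustment over the 18229 clusters in both tables. This fit leaves out the spread of the scramble means. Each target was also fitted against scramble within its own table. Scripts in Python 3.11.15 (pandas 2.3.3, numpy 2.4.6, matplotlib 3.10.9) summarised and drew the results. The fit was also run on 10 simulated data sets with 200 changed genes each, in which both siRNAs of a target acted alike. Those data held no spread between siRNAs and none of the scramble means, so they cannot show how the fit deals with either.

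Clusters were named through RefSeq by accession (17112), by symbol (402) or by former symbol (332), and 382 kept the table's name. For 103 clusters the table's chromosome was not that of the RefSeq gene, and 7 list entries were left out for this. The 33 gene lists held 812 entries, of which 753 were measured. The comparison, the lists and the naming rule were chosen with earlier results of these data known. The rule names the targeted genes and, among called genes, the 12 largest differences in each direction without overlap of arrays. It also takes up to 4 members of smallest p among those called in each list. Genes on opposite sides of scramble complete it, with up to 3 genes a direction of widest smallest pair difference among those called in all 4 pairs. The number of arrays limits the precision. Same-numbered replicates deviated with correlations between -0.384 and 0.6, so the numbers were not taken to pair arrays. Alternatives were a replicate block, each siRNA as the unit, a filter on dim clusters, an intensity trend, a second quantile normalization, median centring, the series matrix as deposited, each array left out, and the scramble spread counted in both tables.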

Additional observations from a re-analysis of the deposited data

Results flagged for a closer look

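In 7 of the named genes the LOC400043 siRNAs were each called against scramble, in opposite directions. In ANXA1 siRNA 1 minus siRNA 2 was -3.519 (adjusted p = 5.64e-05, limma), with siRNA 1 at -0.359 and siRNA 2 at 3.16 from scramble. In CNN2, a calponin gene of the actin cytoskeleton, it was -1.851 (-1.554 and 0.297, adjusted p = 7.45e-05). VIM, the gene of the intermediate filament protein vimentin, gave -1.219 (-0.772 and 0.447, adjusted p = 0.000111). STC2 gave -0.755 (-0.531 and 0.224, adjusted p = 0.000922).

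The other 3 genes ran the other way, with siRNA 1 above scramble and siRNA 2 below it. BNIP3 gave 0.789 (0.271 and -0.518, adjusted p = 0.000786), TNFRSF10B gave 0.747 (0.362 and -0.385, adjusted p = 0.00256) and INA gave 0.683 (0.261 and -0.422, adjusted p = 0.000834). For these 7 genes the mean over the LOC400043 siRNAs describes neither siRNA.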

How the results depend on the processing

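Against 2105 genes higher and 1842 lower in the main comparison of targets, each siRNA as the unit gave 0 and 0 (limma, 1632 at unadjusted p under 0.05). The scramble spread counted in both tables, an alternative chosen after seeing the data, gave 532 and 307. That alternative entered the same scramble arrays once per table as if they were separate. The series matrix as deposited gave 6536 higher (81.2% of calls, beside 53.3%) and a median shift of 0.12 over all clusters, which follows from its 2 normalizations, and 1522 genes higher in all 4 pairs, beside 270. An intensity trend gave 467 higher and 318 lower in all 4 pairs, beside 270 and 143, and 2657 calls within LINC00324, beside 1522. A second quantile normalization gave 302 lower in all 4 pairs. Against scramble, the LINC00324 counts of 36 and 52 became 389 and 684 with the trend and 157 and 150 with the second quantile normalization, and 34 lower with median centring. The cause of these changes was not tested. Leaving out 1 array gave 1206 to 2769 higher, 961 to 2808 lower, 42 to 414 higher and 19 to 372 lower in all 4 pairs, 226 to 2616 within LINC00324 and 951 to 4162 within LOC400043. Against scramble it gave 0 to 49 higher and 0 to 118 lower with LINC00324, and 452 to 1262 higher and 1013 to 1886 lower with LOC400043. The replicate block gave 1949 higher and 1720 lower, within 1.5 times of the main counts, and 3 named genes lost their call. No named gene reversed under any alternative run, and 51 lost their call with the scramble spread in both tables, 133 with each siRNA as the unit and 2 to 20 without 1 array. The 24 largest differences kept an adjusted p of at most 0.0314 in every alternative but each siRNA as the unit. The planned fits of the 8 siRNA arrays alone and of all rows were not run, because the first is the main fit and the second needs rows in both tables.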
